A study of Homo sapiens with 4 samples.

Results

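Metallothioneins are small, cysteine-rich proteins of the cytosol that bind zinc and copper, and their genes lie side by side in a cluster on chromosome 16. Free zinc activates the transcription factor MTF1, which binds short metal response elements in the promoters of metallothionein genes and of SLC30A1, the zinc exporter of the plasma membrane, so these transcripts are widely used as readouts of zinc supply. In the intestinal epithelium metallothioneins buffer zinc taken up from the lumen. The 10 genes described here were taken by name from the deposited tables of 58735 genes: 8 metallothioneins (MT1A, MT1E, MT1F, MT1G, MT1H, MT1M, MT1X and MT2A), SLC30A1 and MTF1. Each was found by its Ensembl ID, matched to a symbol with GENCODE 29.

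RNA of HT8, a cell line whose tissue is given as colon cancer, was sequenced from 2 libraries with the genotype label PPDPF knockdown (titled HT8-cas1) and 2 with the genotype label control (titled HT8). The labels and design text explain neither what HT8-cas1 stands for nor how PPDPF was targeted. PPDPF stood at 281 and 283 FPKM (fragments per kilobase of exon, scaled to library size) in the libraries labelled knockdown, against 237 and 266 FPKM in control. Its log2 fold change of 0.16 (SE 0.06) missed the threshold (limma adjusted p = 0.0940, over 13 alternatives 0.0105 to 0.281), and in 3 of them, among these without control replicate 2 (0.0233), it was called higher. The targeted transcript was thus not lower, so the groups are named as labelled, with rises and falls read against control. Reads in genes numbered 17330674 and 17069628 in the libraries labelled knockdown, and 17348315 and 19479906 in control. Of 9 colon epithelium markers, 8 were at 1 FPKM or more in each library. Listed at 0 in all 4 were PTPRC, CD3E and MS4A1 of 5 immune markers and COL1A2 and DCN of 6 fibroblast markers. So were CDH5 and KDR of 4 endothelial markers and ALB of 4 hepatocyte markers. Others were not at 0, with CD14 (immune) at 0.860 to 1.86 FPKM and SERPINA1 (hepatocyte) at 6.3 to 7.66 FPKM. Separate cultures are not stated for the 2 libraries within a group, and p-values therefore reflect only how far these libraries vary, which may be technical.

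The metallothioneins share one short coding sequence plan. In GENCODE 29 each of the 8 has a coding sequence of 186 bases, with 61 codons before the stop, of which 20 (32.8%) are the cysteine codons TGC and TGT. MT1G and MT2A are shown because they are the most alike of the 28 pairs, with 95.2% of bases identical, and yet differed in how far they fell. Capitals mark the in-frame cysteine codons, 5′ to 3′.

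MT1G: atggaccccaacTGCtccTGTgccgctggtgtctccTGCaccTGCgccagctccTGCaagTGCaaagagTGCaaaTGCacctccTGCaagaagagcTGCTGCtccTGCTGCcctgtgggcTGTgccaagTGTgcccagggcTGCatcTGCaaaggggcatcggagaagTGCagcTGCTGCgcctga
MT2A: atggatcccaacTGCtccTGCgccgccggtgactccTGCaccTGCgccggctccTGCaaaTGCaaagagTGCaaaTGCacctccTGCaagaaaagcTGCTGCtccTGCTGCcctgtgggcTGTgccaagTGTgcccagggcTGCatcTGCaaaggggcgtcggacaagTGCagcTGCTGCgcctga

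The cysteine codons stand at the same places in both sequences, and the bases between them carry most of the differences. The least alike pair was MT1F and MT1X, at 88.7%. Because of this likeness, reads can be hard to assign to one gene. Of all 50-base windows in the annotated transcripts of MT1G, 16.5% also occur in a transcript of another gene, and the share was 3.02% for MT2A, 7.10% for MT1E, 9.87% for MT1M and 5.76% for MT1A. No 100-base window of these 5 genes, nor of MT1F, occurs in another gene's transcript, whereas 11.3% of those of MT1X occur in AC026461.1, which overlaps it and was listed at 0 in each library. At 50 bases the share was 18.3% for MT1X, 15.8% for MT1H and 1.22% for MT1F. Of the 100-base windows of MT1H, 1.385% occur in MT1HL1. Neither the read length nor the handling of reads with several matches is stated in the labels.

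Promoter sequences from RefSeq (GRCh38.p14) were on hand for 5 of the 10 genes, and 4 are printed because they show how densely the metal response element can occur. The core searched was TGCACNC and TGCGCNC, on both strands, in the 250 bases before the RefSeq start, and no other motif was searched. Capitals mark the matches, and each sequence runs 5′ to 3′ along the strand of its gene.

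MT2A (chr16:56608334-56608583, plus strand): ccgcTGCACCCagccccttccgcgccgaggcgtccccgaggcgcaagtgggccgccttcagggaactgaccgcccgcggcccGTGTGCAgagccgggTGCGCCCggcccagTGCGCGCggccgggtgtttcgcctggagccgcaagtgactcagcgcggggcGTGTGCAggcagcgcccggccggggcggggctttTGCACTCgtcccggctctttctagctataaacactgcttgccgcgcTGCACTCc
MT1H (chr16:56669564-56669813, plus strand): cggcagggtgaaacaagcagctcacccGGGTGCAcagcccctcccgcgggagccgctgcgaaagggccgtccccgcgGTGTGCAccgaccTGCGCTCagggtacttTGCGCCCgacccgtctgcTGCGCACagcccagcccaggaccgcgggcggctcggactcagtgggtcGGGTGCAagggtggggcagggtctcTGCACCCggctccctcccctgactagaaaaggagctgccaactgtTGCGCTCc
MT1X (chr16:56682220-56682469, plus strand): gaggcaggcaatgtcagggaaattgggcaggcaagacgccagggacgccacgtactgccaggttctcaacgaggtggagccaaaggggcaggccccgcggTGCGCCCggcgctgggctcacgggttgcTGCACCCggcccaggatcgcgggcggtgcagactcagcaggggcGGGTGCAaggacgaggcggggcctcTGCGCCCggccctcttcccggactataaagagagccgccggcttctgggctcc
SLC30A1 (chr1:211579162-211579411, minus strand): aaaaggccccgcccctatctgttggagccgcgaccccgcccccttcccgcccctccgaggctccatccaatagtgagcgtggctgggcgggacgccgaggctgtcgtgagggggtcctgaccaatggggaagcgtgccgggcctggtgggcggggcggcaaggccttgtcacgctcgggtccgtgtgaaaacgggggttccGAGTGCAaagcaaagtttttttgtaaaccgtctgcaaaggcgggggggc

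The MT2A window holds 7 matches, that of MT1H 8 and that of MT1X 4, the closest to the start lying 8 bases before it in MT2A and in MT1H. The SLC30A1 window holds 1 match and the MTF1 window 0. RefSeq and GENCODE starts can differ. The SLC30A1 window, 211579162 to 211579411, lies wholly upstream of the GENCODE gene, whose start on the minus strand is 211578742. The bases between them were not searched. The MT2A window, 56608334 to 56608583, lies inside the GENCODE gene, 56608199 to 56609497. The match counts therefore hold for the RefSeq starts only. Among 35116 promoter windows of the same length, 24.8% hold at least 1 match, 0.370% hold at least 4 and 0.0513% hold at least 6. MT1A, MT1E, MT1F, MT1G and MT1M had no matched window. A match is a run of letters and not evidence of binding, and a window without one says nothing about MTF1 at that gene.

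Most metallothionein transcripts fell in the libraries labelled knockdown. Among the 8 genes, 7 passed the filter of a mean of at least 1 FPKM, of which 6 fell, 0 rose and 1 did not pass the test (limma on log2(FPKM + 1), Benjamini-Hochberg adjusted p under 0.05 over 12777 genes). Over all tested genes 13.0% fell and 16.8% rose by that rule. The median log2 fold change of the 7 was -0.57, against 0.0011 for all tested genes. The count was 4 without knockdown replicate 2 or control replicate 2, 5 without either of the others, and 4 with no filter on low values. Summed FPKM of 5 immune markers was 0.966 and 0.907 in the libraries labelled knockdown against 1.59 and 1.86 in control, that of 6 fibroblast markers 0.377 and 0.504 against 0.640 and 0.723, and that of 4 hepatocyte markers 6.39 and 6.57 against 7.70 and 7.28 with ALB at 0. That of 4 endothelial markers was 0.185 and 0.108 in the libraries labelled knockdown against 0.0456 and 0.121 in control, and so overlapped. The immune sum was almost wholly CD14, at 0.860 and 0.907 FPKM in the libraries labelled knockdown against 1.57 and 1.86 FPKM in control, with 3 of the 5 markers at 0. The hepatocyte sum was almost wholly SERPINA1, at 6.3 and 6.54 FPKM in the libraries labelled knockdown against 7.66 and 7.10 FPKM in control. SERPINA1 missed the threshold (limma adjusted p = 0.0796). The 9 colon epithelium markers summed to 3160 and 3134 in the libraries labelled knockdown against 2621 and 2802 in control, and the part of these markers in the result was not tested. KRT8, KRT18 and KRT19 made up most of that sum. Of the 8 markers tested, 4 were called higher and 1, CDH1, lower, against 16.8% and 13.0% of all tested genes. CDX2 missed the threshold at -0.17 on the log2 scale. In bulk RNA, fewer cells that express a gene and less RNA per cell cannot be told apart.

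MT1G and MT1M fell the furthest. MT1G (ENSG00000125144, GRCh38 chromosome 16, 56666731 to 56668065, minus strand) stood at 33.8 and 33.5 FPKM in the libraries labelled knockdown, against 82.6 and 82.9 FPKM in control, from 438 and 426 reads against 1089 and 1222. Both libraries of each group lay within 1 FPKM of each other, and the groups were far apart. Read sampling at these counts would typically spread 2 libraries by more than that. The SE, interval and SD that follow are therefore likely too narrow. The log2 fold change was -1.27 (SE 0.03, 95% interval -1.35 to -1.20, limma adjusted p = 0.000597), a mean of 33.7 ± 0.240 against 82.7 ± 0.235 FPKM (SD, n = 2 each), which is 59.3% lower. Of the 12777 tested genes, 47, MT1G included, fell this far or further. MT1M (ENSG00000205364, 56632233 to 56633986), a less abundant copy, had 8.86 and 7.95 FPKM in the libraries labelled knockdown and 21.5 and 20.3 FPKM in control. Its groups did not overlap either, and in 33.8% of all tested genes both libraries labelled knockdown lay under both controls. The log2 fold change of MT1M was -1.22 (SE 0.06, limma adjusted p = 0.00107), or 59.8% lower in mean FPKM. MT1M thus kept almost the same level relative to MT1G, a ratio of 0.262 and 0.237 in the libraries labelled knockdown and of 0.260 and 0.245 in control.

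MT2A and MT1E, the most abundant members, fell by about the same proportion as each other and less than MT1G. MT2A (ENSG00000125148, 56608199 to 56609497), which is found in most human tissues, had 126 and 120 FPKM in the libraries labelled knockdown, against 182 and 195 FPKM in control. MT1E (ENSG00000169715, 56625475 to 56627112) had 160 and 148 FPKM in the libraries labelled knockdown, against 238 and 223 FPKM in control. In both genes the higher library labelled knockdown stood well under the lower control. The log2 fold change was -0.61 for MT2A (SE 0.05, limma adjusted p = 0.00183) and -0.57 for MT1E (SE 0.05, limma adjusted p = 0.00271), which is 34.8% and 32.9% lower in mean FPKM. MT1G, MT1M, MT2A and MT1E kept their calls under each of the 13 alternatives run.

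MT1X and MT1A fell less surely. MT1X (ENSG00000187193, 56682424 to 56684196) was low, with 2.84 and 2.36 FPKM in the libraries labelled knockdown and 4.04 and 3.67 FPKM in control, from 87 and 71 reads against 126 and 128. MT1A (ENSG00000205362, 56638666 to 56640087) had 40.2 and 36.0 FPKM in the libraries labelled knockdown and 45.4 and 51.5 FPKM in control, with the closest pair of libraries from different groups only about as far apart as those of one group. The log2 fold changes were -0.43 for MT1X (SE 0.10, limma adjusted p = 0.0291) and -0.34 for MT1A (SE 0.08, limma adjusted p = 0.0346). In mean FPKM this was 32.5% and 21.3% lower, so MT1X fell by about the same proportion as MT1E. Adding 1 to FPKM before the log shrinks the change of MT1X at its low level, and with 0.1 added it was -0.55. MT1X lost its call without knockdown replicate 2 or either control (limma adjusted p = 0.0933, 0.128 and 0.0750, over its 12 alternatives 0.0231 to 0.128), and MT1A without either knockdown replicate or control replicate 2 (0.0511, 0.121 and 0.108) and with the replicate number as a block (0.0594, over its 13 alternatives 0.0103 to 0.135). With no filter on low values both calls were lost (limma adjusted p = 0.113 for MT1X and 0.135 for MT1A).

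MT1F missed the threshold, and no reads were listed for MT1H. MT1F (ENSG00000198417, 56657694 to 56660698) had 3.56 and 3.996 FPKM in the libraries labelled knockdown and 4.21 and 3.93 FPKM in control, so the groups overlapped. With a 95% interval of -0.29 to 0.11 around its log2 fold change of -0.09, it had a limma adjusted p of 0.437, and its interval does not reach the changes of MT1G, MT1M, MT2A or MT1E. MT1H (ENSG00000205358, 56669814 to 56671129), whose neighbour in the cluster is MT1G and whose promoter window holds the 8 matches shown above, was listed at 0 in all 4 libraries and could not be tested.

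**Figure D1:**
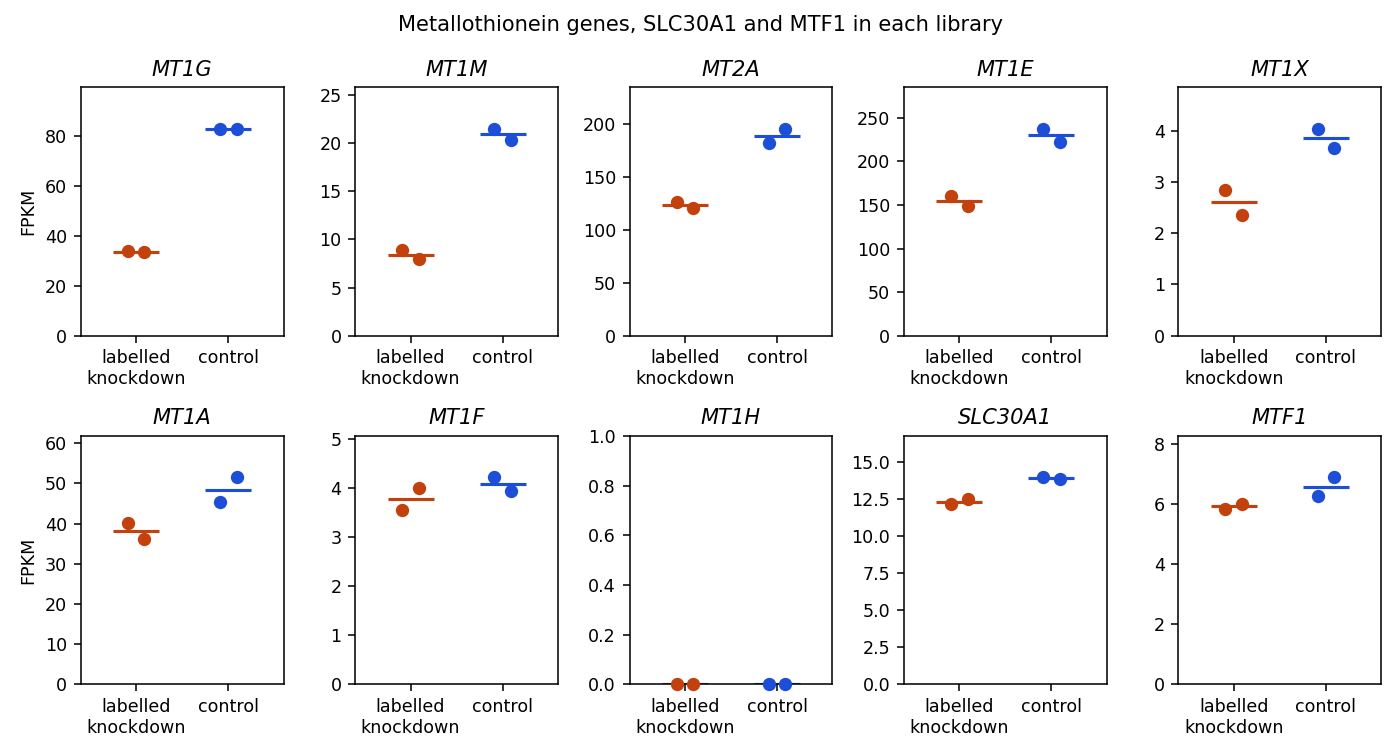
FPKM of the 8 metallothionein genes, SLC30A1 and MTF1 in each library, with the libraries labelled knockdown in orange on the left of each panel and control in blue on the right. Points are libraries and lines are the means of 2, and each axis starts at 0. Each panel has its own scale, on which MT1G and MT1M show the widest gaps relative to their level, while in FPKM the gaps of MT1E and MT2A are wider. MT1F overlaps and MT1H is at 0.

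Together the 8 genes came to 375 and 353 summed FPKM in the libraries labelled knockdown, against 577 and 580 in control. This was 392 and 368 reads for every 1000000 reads in genes in the libraries labelled knockdown, against 610 and 609 in control. MT1E and MT2A made up most of the sum in both groups: MT1E took 42.7% and 42.1% in the libraries labelled knockdown and 41.2% and 38.4% in control, and MT2A 33.5% and 34.1% against 31.5% and 33.6%. The share of MT1G was smaller, at 9.02% and 9.50% in the libraries labelled knockdown against 14.3% and 14.3% in control, while that of MT1A was larger, at 10.7% and 10.2% against 7.86% and 8.88%. The order of the levels per exon length was MT1E, MT2A, MT1A, MT1G and MT1M in the libraries labelled knockdown, and MT1E, MT2A, MT1G, MT1A and MT1M in control. MT1F and MT1X came last in both, and their values overlapped in control. The ratio of MT1G to MT2A was 0.269 and 0.279 in the libraries labelled knockdown against 0.454 and 0.425 in control. These shares and ratios were not tested. FPKM divides by the length of all annotated exons of a gene, between 396 bases for MT1A and 1889 for MT1F, so a gene with long rarely used exons is understated against the others, in both groups alike.

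**Figure D2:**
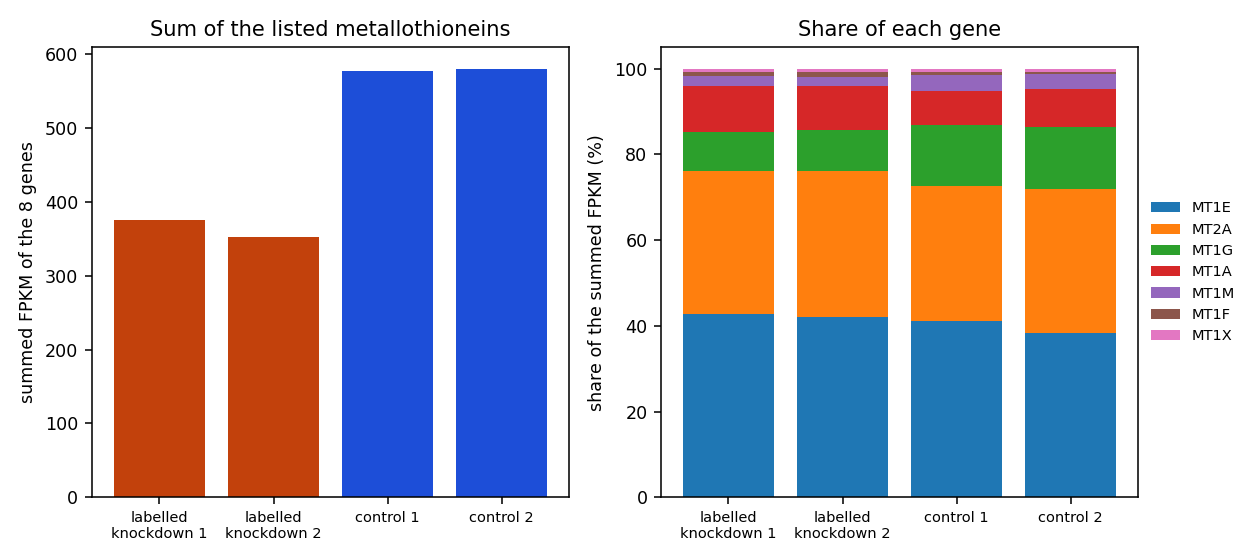
Left, FPKM summed over the 8 listed metallothionein genes in each library, with the libraries labelled knockdown (orange) left of control (blue). Right, the percentage of that sum taken by each gene. The sum was 375 and 353 in the libraries labelled knockdown and 577 and 580 in control, and the share of MT1G was under 10% in the first pair and 14.3% in the second.

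SLC30A1, the exporter that carries zinc out of the cell, was slightly lower. The gene (ENSG00000170385, chromosome 1, 211571568 to 211578742) stood at 12.1 and 12.5 FPKM in the libraries labelled knockdown, against 14.0 and 13.9 FPKM in control. Both values of the first pair lay under both of the second, as for 33.8% of all tested genes. The mean was 12.3 ± 0.267 against 13.9 ± 0.0598 FPKM (SD, n = 2 each), which is 11.5% lower, and the log2 fold change of -0.16 (SE 0.04, 95% interval -0.27 to -0.06) passed the test (limma adjusted p = 0.0388). Leaving out any 1 of the 4 libraries ended the call (limma adjusted p = 0.0955 to 0.150), as did no filter on low values (0.0725) and the replicate number as a block (0.0650), with 0.00563 as the lowest value over the 13 alternatives. Of all tested genes, 22.3% had a log2 fold change this low or lower, against 2.83% for MT2A and 0.368% for MT1G. The 95% interval of SLC30A1 lies wholly above those of MT1G, MT1M, MT2A and MT1E, but overlaps those of MT1X, MT1A and MT1F.

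MTF1, the zinc-sensing transcription factor, did not pass the test. It (ENSG00000188786, chromosome 1, 37809567 to 37859620) had 5.84 and 5.9975 FPKM in the libraries labelled knockdown, against 6.26 and 6.89 FPKM in control. Both libraries labelled knockdown were under both controls, as for 33.8% of all tested genes. The log2 fold change was -0.13 (SE 0.06, 95% interval -0.29 to 0.03, limma adjusted p = 0.180, over the alternatives 0.0375 to 0.531), so a fall of up to 0.29 on the log2 scale lies within the interval. With voom on reads recovered from the FPKM it was called lower (log2 fold change -0.18, limma adjusted p = 0.0375). The activity of the MTF1 protein was not measured.

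Other zinc transporters moved in both directions. Of 9 further exporters of the SLC30 family, which move zinc out of the cytosol, 5 were tested and 0 rose or fell by the test, with log2 fold changes between -0.11 (SLC30A6) and 0.03 (SLC30A4) and 0 of them passed an unadjusted p of 0.05 in limma or the call in voom. Of 14 importers of the SLC39 family, which move zinc into the cytosol, 9 were tested, of which 4 rose and 2 fell. By the same rule 16.8% of all tested genes rose and 13.0% fell. Whichever library was left out 1 fell, and without knockdown replicate 2 or control replicate 2 the count that rose was 2. SLC39A4, the main importer of dietary zinc in the gut, had 17.3 and 17.4 FPKM in the libraries labelled knockdown, against 10.5 and 11.9 FPKM in control (log2 fold change 0.59, SE 0.07, limma adjusted p = 0.00444). The 61 other tested genes within 1000000 bases of it on chromosome 8 had a median log2 fold change of 0.54, nearly that of SLC39A4 itself, and the part of this in its rise was not tested. SLC39A10, a plasma membrane importer on chromosome 2, had 10.1 and 10.9 FPKM in the libraries labelled knockdown against 7.03 and 7.43 FPKM in control (log2 fold change 0.48, SE 0.06, limma adjusted p = 0.00531). SLC39A6, its close relative, had 23.7 and 25.3 FPKM in the libraries labelled knockdown against 31.6 and 31.5 FPKM in control (log2 fold change -0.35, SE 0.04, limma adjusted p = 0.00555). SLC39A10 thus rose while SLC39A6 fell, and together with SLC39A4 they kept their calls under each of the 13 alternatives.

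The remaining importer calls were weaker. SLC39A13 (log2 fold change 0.33, limma adjusted p = 0.0230) and SLC39A7 (0.18, limma adjusted p = 0.0481), which release zinc from intracellular stores, were called higher, and SLC39A3 was called lower (-0.26, limma adjusted p = 0.0298). Each lost its call with no filter and without 3 or 4 of the single libraries (highest limma adjusted p = 0.0962, 0.172 and 0.122). SLC39A7 also lost it under quantile normalization and under scaling to non-mitochondrial reads. SLC39A14, the most abundant importer beside SLC39A7, had 60.4 and 59.8 FPKM in the libraries labelled knockdown against 59.2 and 58.9 FPKM in control, with a 95% interval of -0.05 to 0.10 on the log2 scale.

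**Figure D3:**
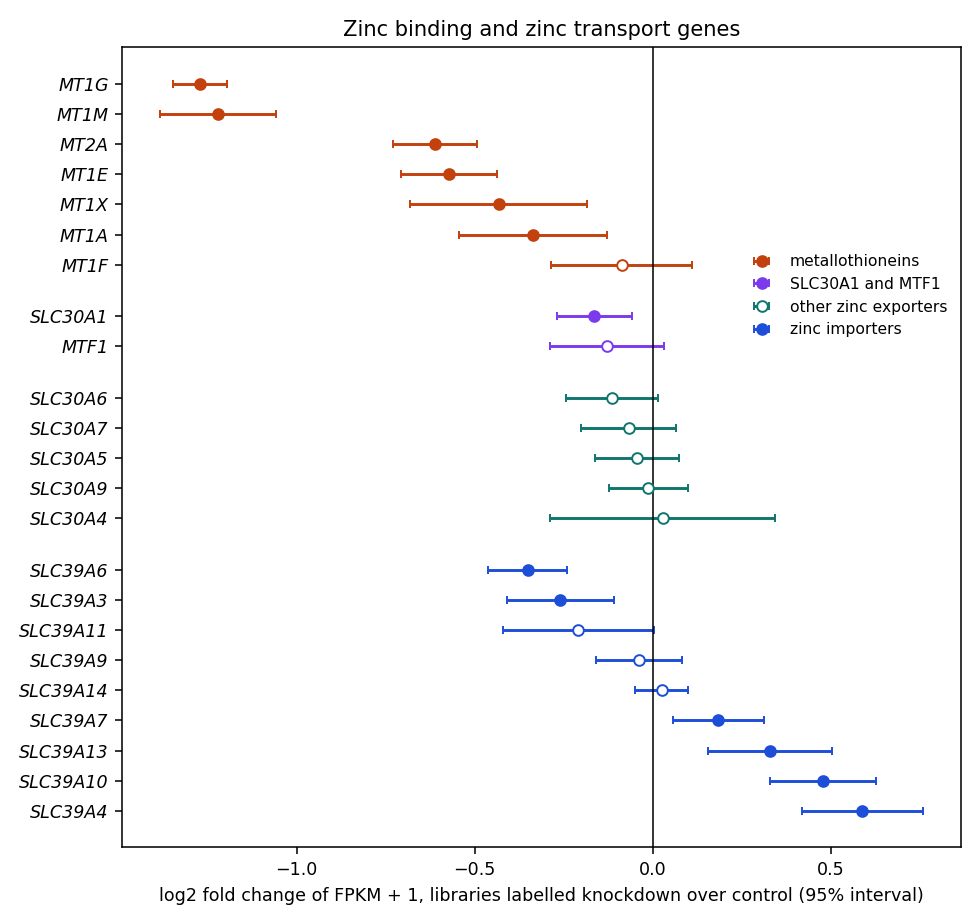
Log2 fold change of FPKM + 1 (libraries labelled knockdown over control) for the tested metallothioneins, SLC30A1, MTF1 and the other tested zinc transporters. Bars are 95% intervals from the limma fit, and filled points passed an adjusted p of 0.05. The metallothioneins lie from -1.27 to -0.09, the other exporters from -0.11 to 0.03, and the importers from -0.35 to 0.59.

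Of the 23 zinc transporters other than SLC30A1, 14 were tested and the rest lay under the filter. From the rest, 2 are named here, picked after their values were seen. SLC30A10, an exporter of manganese, had 21 and 22 reads in the libraries labelled knockdown against 3 and 1 in control, a ratio, scaled to library size, of 11.5 (exact 95% counting interval 4.18 to 44.1). SLC39A8, an importer of zinc and manganese, had 27 and 29 reads in the libraries labelled knockdown against 83 and 89 in control, a ratio of 0.349 (0.253 to 0.474). These intervals cover counting error only and are no test of the groups.

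The 16 annotated metallothionein genes and pseudogenes of chromosome 16 span 119 kb, and 22 other genes that start within 1000000 bases of the cluster were tested. Of these 1 rose and 5 fell, with a median log2 fold change of -0.06, where 16.8% rose and 13.0% fell over all tested genes. NUP93, the nearest tested gene on the MT1X side and a nuclear pore protein, had 7.51 and 7.77 FPKM in the libraries labelled knockdown against 7.89 and 7.94 FPKM in control (log2 fold change -0.05). The 5 that fell were NUDT21, an RNA processing factor, HERPUD1, an ER stress protein, NLRC5, an activator of MHC class I genes, PLLP, a membrane protein, and COQ9, of coenzyme Q synthesis. Their log2 fold changes lay between -0.34 for NLRC5 and -0.15 for NUDT21, so NLRC5 fell as far as MT1A, and all 5 fell less than MT1X, MT1E, MT2A, MT1M and MT1G, while DOK4 rose by 0.22. The count that fell was 0 without knockdown replicate 1 or control replicate 1 and 1 without either of the others, and 1 rose only without control replicate 2.

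**Figure D4:**
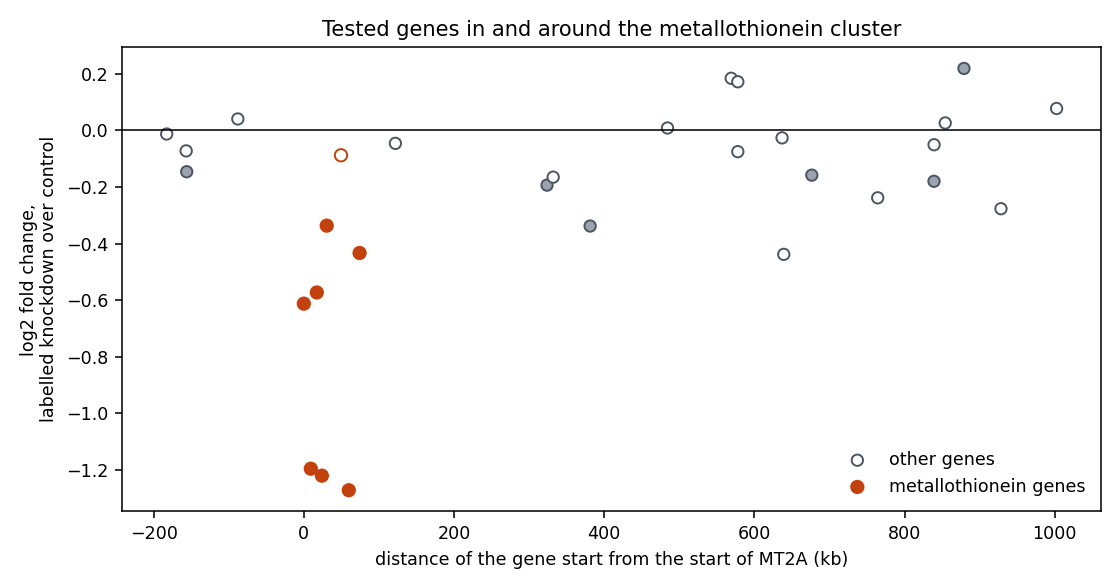
Log2 fold change (libraries labelled knockdown over control) of each tested gene in and within 1000000 bases of the metallothionein cluster, against the distance of its start from that of MT2A in kb. Orange points are metallothionein genes, MT1L included (it passed the filter only through control), grey points are other genes, and filled points passed an adjusted p of 0.05. The metallothioneins reach -1.27, and no other gene in the window is below -0.44.

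Of the 13 other annotated metallothionein genes and pseudogenes, only MT1L passed the filter, and 5 (MT1HL1, MT4, MT1B, MT1IP and MT1P3) were listed at 0 in all 4 libraries. MT1L, annotated as a transcribed pseudogene, had 2 and 1 reads in the libraries labelled knockdown against 10 and 18 in control, a ratio, scaled to library size, of 0.115 (exact 95% counting interval 0.0223 to 0.371). MT1L passed the filter only through control, where it is high (mean 0.213 FPKM in the libraries labelled knockdown and 1.81 FPKM in control), so its call is no support for a fall. MT3, the metallothionein of brain, had 1 read in all.

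Outside the metallothioneins, tested genes with a promoter window on hand were also sorted by its number of metal response element cores. Each gene counted with 1 window, and tested genes without one were left out. Of 5866 tested genes whose window holds 0 matches, 13.2% fell (median log2 fold change 0.0025), against 11.1%, or 5, of 45 genes whose window holds 4 or more (median 0.07). With 1, 2 and 3 matches 13.1%, 11.6% and 10.7% fell. Genes that rose numbered 1076 with 0 matches and 6 with 4 or more.

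Other inputs to metallothionein genes and other metal-responsive genes were read from lists chosen with earlier results known. Of 12 genes of the metal and electrophile response, all tested, 5 rose and 0 fell, where 16.8% rose and 13.0% fell over all tested genes. TXNRD1, thioredoxin reductase, had 130 and 127 FPKM in the libraries labelled knockdown against 87.0 and 92.3 FPKM in control (log2 fold change 0.51, limma adjusted p = 0.00191), and GCLC, the catalytic subunit of glutathione synthesis, rose by 0.49 (limma adjusted p = 0.00293). The others that rose were ATF3, HSPA1B and DNAJB1. HMOX1, the haem oxygenase that cadmium and haem induce, missed the threshold at 0.07 on the log2 scale (limma adjusted p = 0.385). The count of genes that rose was 2 without knockdown replicate 1 and 3 with no filter, and NQO1, at -0.23, was called lower in 6 alternatives. NFE2L2, the transcription factor of the electrophile response, fell by 0.43 on the log2 scale (limma adjusted p = 0.00565) and was the only call among 5 tested genes of zinc signalling.

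Glucocorticoids and cytokines also induce metallothioneins. NR3C1, the glucocorticoid receptor, was listed at 0 in all 4 libraries, and of 8 tested genes of the glucocorticoid list DUSP1, a phosphatase of MAP kinases, rose (limma adjusted p = 0.00454), as did ERRFI1, an inhibitor of the EGF receptor (limma adjusted p = 0.0305, lost without either knockdown replicate or control replicate 1, at up to 0.118), and FKBP5, a chaperone of the receptor, fell (limma adjusted p = 0.0417, lost whichever single library was left out). KLF9 and CEBPD were also called higher, but passed the filter only through the libraries labelled knockdown, where they are high, so their calls support nothing. KLF9, a zinc finger transcription factor, had 3.05 and 2.58 FPKM in the libraries labelled knockdown against 0.747 and 0.757 FPKM in control, and CEBPD, another transcription factor, 1.76 and 2.36 FPKM against 0.548 and 0.888 FPKM. Of 6 tested genes of cytokine signalling through STAT3, 3 rose: IL6R, the interleukin 6 receptor, by 1.25, its partner IL6ST by 0.66 and the kinase JAK1 by 0.41 on the log2 scale (limma adjusted p = 0.00139, 0.00159 and 0.00275). STAT3 itself missed the threshold, at -0.01 (limma adjusted p = 0.929). For comparison, 16.8% of all tested genes rose and 13.0% fell.

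Copper handling genes, whose metal metallothioneins also bind, split evenly, with 3 higher and 3 lower of 11 tested. Among all tested genes 16.8% rose and 13.0% fell. SOD1, the copper-zinc superoxide dismutase, had 85.5 and 87.6 FPKM in the libraries labelled knockdown against 75.1 and 74.0 FPKM in control (limma adjusted p = 0.00857), and STEAP3, a metalloreductase, had 10.3 and 10.8 FPKM in the libraries labelled knockdown against 14.5 and 13.4 FPKM in control (limma adjusted p = 0.00905). The copper importer SLC31A1 and SCO1, of cytochrome oxidase assembly, were called lower, and the copper pump ATP7B and the chaperone ATOX1 higher, and leaving out any 1 library ended each of these 4 calls, leaving 1 higher and 1 lower (highest limma adjusted p = 0.143, 0.0746, 0.0907 and 0.118).

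The 5 genes nearest in pattern to the mean profile of the 7 tested metallothioneins over the 4 libraries, by Euclidean distance of centred log2 values among 7869 genes with a mean of at least 5 FPKM, were EPHA2, SLC6A9, PHF10, BCAM and LAP3. Their distances were 0.0633 to 0.0696 and their log2 fold changes -0.66, -0.65, -0.62, -0.63 and -0.62. The distance chose them for that size of fall.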

How the data were processed

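RNA was taken up in Trizol and sequenced as Illumina libraries, per the labels' protocols; the aligner HISAT2 2.0.5 and the build hg18 stand in the submitters' processing notes. Each library has 1 table of FPKM per gene as the authors deposited it, per the file headers. All 58735 IDs matched GENCODE 29, whose GRCh38 coordinates are used here although the notes name hg18. Multiplying FPKM by the length of all annotated exons gave whole reads for 100% of values, within 0.01 of a read.

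The test was limma-trend (limma 3.58.1, R 4.3.3) on log2(FPKM + 1), a scale that understates changes of low genes. It kept genes with at least 1 FPKM on average and had group as its only term, was two-sided, and was Benjamini-Hochberg adjusted over 12777 genes. The fit was run on simulated data with a fixed spread between libraries, which checks the code and not the calls given here. Named genes were the 10 members, PPDPF, genes called in the lists other than the cell type markers, and the 5 nearest in pattern, plus a few that the text says were chosen after their values were seen or that it needs as landmarks. The members and lists were chosen with earlier results of these data known. Shared windows were found with BLAST 2.17.0 and kept where identical, and figures were drawn with matplotlib 3.10.9. Alternatives changed the normalization, filter, pseudocount, scaling, test, replicate block, GC and length correction and libraries.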

Additional observations from a re-analysis of the deposited data

How the results depend on the processing

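MT1G, MT1M, MT2A and MT1E kept their direction and call under all 13 alternatives, and 4 to 6 of the listed metallothioneins fell under each. With no filter on low values 734 genes fell and 1134 rose in all, 1 and 2 of the zinc transporters, and 1 and 0 beside the cluster, and SLC30A1 missed the threshold at -0.16. With voom 2709 genes fell in all, 2 rose beside the cluster and MTF1 was called lower at -0.18. Beside the cluster 0 rose under quantile normalization, where SLC39A14 turned to -0.025. Leaving out 1 library gave 775 to 919 genes that fell and 1141 to 1345 that rose in all, 1 and 2 to 3 zinc transporters, and 0 to 1 and 0 to 1 genes beside the cluster. SLC30A1 then lay between -0.18 and -0.14, and genes that were never called changed sign: SLC30A4 (-0.031 to 0.087), SLC30A9 (-0.050 to 0.025), SLC39A9 (-0.078 to 0.0015) and STAT3 (-0.059 to 0.044). The cause of these changes was not tested.

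Same-numbered libraries did not deviate together (correlation across genes -0.0021). This cannot show whether they share a batch or culture, which the labels do not state. With the replicate block 1405 genes fell and 1899 rose in all, 3 fell beside the cluster, 5 listed metallothioneins fell, and SLC30A1 missed the threshold at -0.16. With the block and the GC and length correction 0 rose beside the cluster and SLC30A1 missed it at -0.17. With 2 libraries a group, depth limits MT1L, at 1 to 18 reads a library. MT1H, at 0, could not be tested, and the reason for its lack of reads was not tested.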
